A study of Mus musculus with 6 samples.

Results

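CC chemokines are small secreted proteins that attract leukocytes, and 10 of their genes (Ccl2, Ccl3, Ccl4, Ccl5, Ccl6, Ccl7, Ccl9, Ccl12, Ccl22 and Ccl24) were followed here among the 55401 genes counted in brain microglia of MRL/lpr and MRL/mpj mice. The genes were taken by symbol, and all 10 had enough reads to be tested. The lpr mutation, which disrupts the death receptor gene Fas in every cell of MRL/lpr mice, leads to a disease that resembles systemic lupus erythematosus, and MRL/mpj is the strain of the same background without it. There were 3 libraries of each strain, from untreated animals 6 weeks old, and the question was how the microglial transcriptome differs between the strains. The cells were released from the brain by an enzyme digestion at 37 degrees and selected with magnetic beads against CD11b, a surface protein that other myeloid cells and some lymphocytes also carry. The libraries are described as coming from 3 mice of each strain, and the labels do not tie a library to an animal. Each MRL/lpr library held both Xist, a transcript of females, and Y-linked transcripts, so its reads came from mice of both sexes. How animals were combined into libraries is not given in the sources used here, so the p-values measure the spread between these libraries.

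A CC chemokine is named for a pair of neighbouring cysteines near its amino terminus. It acts through receptors with a serpentine fold that signal through inhibitory G proteins, and most of the receptors accept several ligands. Microglia and other macrophages make CC chemokines quickly when they meet microbial products, cytokines or injury, largely through the transcription factor NF-kB, and in the brain the proteins are known for drawing in monocytes and T cells.

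The 10 genes lie in few places. By GENCODE M21 on GRCm38, 8 of them are on chromosome 11. Ccl2, Ccl7 and Ccl12 span 67.8 kb in that order on the plus strand. Ccl5, Ccl9, Ccl6, Ccl3 and Ccl4 follow within 138.9 kb, the first 4 on the minus strand and Ccl4 on the plus strand. Ccl24 is on chromosome 5 and Ccl22 on chromosome 8.

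Stretches of promoter are shown for the pair of neighbours that differed between the strains in opposite directions, Ccl6 (higher in MRL/lpr) and Ccl9 (lower), and for Ccl3, whose level differed by the most reads. Each sequence is the 250 bases before the start site in RefSeq on GRCm38.p6, written 5′ to 3′ along the gene, which is on the minus strand. The capitals mark motif matches.
Ccl6, chr11:83593088-83593337: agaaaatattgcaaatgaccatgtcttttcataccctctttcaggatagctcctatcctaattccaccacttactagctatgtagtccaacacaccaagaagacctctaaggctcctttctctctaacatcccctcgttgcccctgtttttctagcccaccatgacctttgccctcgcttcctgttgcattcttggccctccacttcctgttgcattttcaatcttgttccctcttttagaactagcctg
Ccl9, chr11:83578637-83578886: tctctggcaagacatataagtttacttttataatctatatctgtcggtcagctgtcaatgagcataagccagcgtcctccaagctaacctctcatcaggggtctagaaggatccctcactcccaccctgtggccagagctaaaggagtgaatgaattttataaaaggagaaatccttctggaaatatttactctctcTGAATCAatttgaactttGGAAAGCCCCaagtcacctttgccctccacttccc
Ccl3, chr11:83649379-83649628: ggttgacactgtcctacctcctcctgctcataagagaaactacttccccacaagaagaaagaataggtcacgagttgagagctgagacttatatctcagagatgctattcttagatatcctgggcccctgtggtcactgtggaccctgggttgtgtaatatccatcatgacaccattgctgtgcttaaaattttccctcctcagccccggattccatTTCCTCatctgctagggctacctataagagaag
The RefSeq table held 5 of the 10 genes (Ccl3, Ccl6, Ccl9, Ccl12 and Ccl22), and both strands were searched for 5 motifs. The consensus site of NF-kB was found in 1 of the 5 windows, that of Ccl9, on the opposite strand 35 to 26 bases before the start, and 7.25% of all 32851 windows of this length hold it. The AP-1 site TGANTCA was also found in Ccl9 alone, 53 to 47 bases before the start, and is in 6.75% of all windows. The ETS box GAGGAA, of the kind bound by PU.1, was found in Ccl3 on the opposite strand 33 to 28 bases before the start and in Ccl12 130 to 125 bases before it, and is in 23.3% of all windows. The interferon-stimulated response element (2.98% of all windows) and the C/EBP motif TTGCNNAA (9.56%) were in 0 of the 5 windows, which says only that these letters are not there. No match overlapped another, and a match is a description of the reference sequence and not a measured binding site.

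Library totals ran from 45481609 to 49846634 counts. Low counts gathered at multiples of 4 (1138 to 1288 genes a library had 4 counts, against 320 to 415 with 3 and 211 to 261 with 5), and Ccl22 had the fewest counts of the 10 members. All 11 microglial markers examined were detected in each library, and 2 of them (Gpr34 and Fcrls) were lower in MRL/lpr while 9 did not pass the test. Some of those 9 varied widely between libraries of the same strain, so their result does not show that the strains were alike. Of all genes tested, 9.06% were lower. At an unadjusted p under 0.05 by edgeR, 3 markers were lower and 0 higher, the third being P2ry12 (log2 fold change -0.67, edgeR adjusted p = 0.0566). The Fas count does not separate mutant from intact transcripts, and its log2 fold change was -0.06. Xist, which is expressed from the inactive X chromosome of females, was counted 8886 to 11319 times per MRL/lpr library but 27 to 38 times per MRL/mpj library, and 4 Y-linked genes summed to 8408 to 11783 and 13155 to 15046 counts. The methods describe female mice. Each MRL/lpr library thus held reads from mice of both sexes, whereas the MRL/mpj libraries held Y-linked transcripts with little Xist. The sex makeup of the libraries differed with the strain, and for every difference given here strain and sex cannot be told apart. Mitochondrial transcripts made up 3.06% to 3.49% of MRL/lpr counts and 5.84% to 6.38% of MRL/mpj counts.

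In the comparison of the strains, 8 of the 10 CC chemokine genes were higher in the CD11b-selected cells of MRL/lpr (Ccl2, Ccl3, Ccl4, Ccl5, Ccl6, Ccl7, Ccl12 and Ccl24), 1 was lower (Ccl9) and 1 did not pass the test (Ccl22). When 1 library was left out, 4 members were higher without MRL/lpr replicate 2, 8 without MRL/lpr replicate 3 and 5 without each of the other libraries. The threshold was an adjusted p under 0.05 by edgeR's quasi-likelihood test on the counts, with Benjamini-Hochberg adjustment over the 19554 genes tested. Of all genes tested, 11.1% were higher and 9.06% lower by this threshold, 20.2% in all. The median log2 fold change (MRL/lpr over MRL/mpj) of the 10 genes was 0.59, and that of all genes tested was -0.01. When a log2 fold change of at least 1 was also required, 1 member, Ccl24, was higher and Ccl3, at 0.98, was just under it. Of all genes tested, 4.67% were higher and 3.66% lower by both thresholds, 8.34% in all. The 9 called genes were those whose libraries did not overlap between the strains, 8 with every MRL/lpr library above every MRL/mpj library (19.6% of all genes tested) and 1 with every library below (19.4%, and 39% for either direction).

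Scaling mattered for these counts. In MRL/lpr replicate 3 the top gene, CT010467.1, held 6.38% of all counts, and the top gene of the other libraries held 1.09% to 1.95%. Without TMM, such a gene lowers the share left to all other genes of its library. Its part in the changes given next was not tested. Scaled by library size alone, without the trimmed mean of M-values (TMM), the median of all genes moved from -0.01 to -0.13, and the whole table had 1634 genes higher and 2790 lower in place of 2178 and 1772. Under that scaling 4 of the CC chemokines stayed higher (Ccl3, Ccl5, Ccl6 and Ccl24), Ccl9 stayed lower, and Ccl2, Ccl4, Ccl7 and Ccl12 kept a positive value that did not pass the test.

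**Figure D1:**
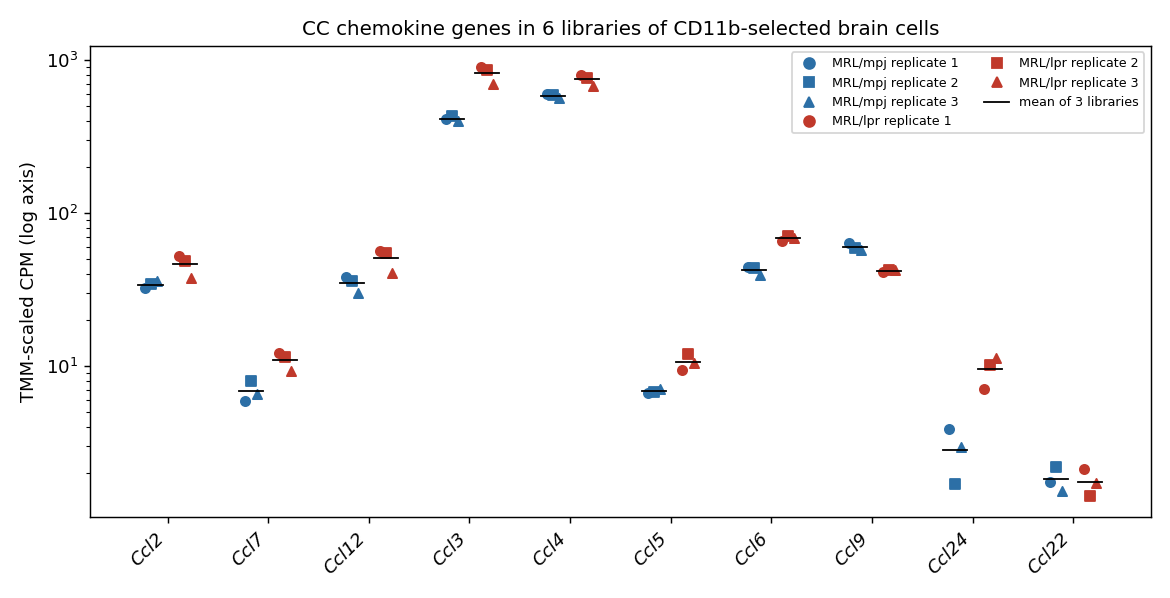
Level of each of the 10 CC chemokine genes in each library, in TMM-scaled CPM on a log axis, with MRL/mpj in blue and MRL/lpr in red. Marker shapes stand for the replicate number and black bars for the mean of 3 libraries. The red points lie above the blue for 8 genes, below them for Ccl9 and among them for Ccl22.

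Ccl2, Ccl7 and Ccl12 are the monocyte chemoattractant proteins of this set and act mainly through Ccr2. All 3 were higher in MRL/lpr, by less than 1 on the log2 scale, and all 3 had their lowest MRL/lpr value in the same library, replicate 3. Ccl2 (ENSMUSG00000035385, chr11:82035571-82037453) had 52.3, 48.6 and 37.9 CPM (counts scaled to a common library size with TMM factors) in MRL/lpr replicates 1 to 3 and 32.3, 34.4 and 35.9 in MRL/mpj. Its highest MRL/mpj library lay just below its lowest MRL/lpr library. The log2 fold change was 0.44 ± 0.12 (SE), a 1.35-fold difference with an adjusted p of 0.0332 by edgeR's quasi-likelihood test. An unexpressed gene on the opposite strand, Gm17268, covers Ccl2 and had 0 counts in each library.

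Ccl7 (ENSMUSG00000035373, chr11:82045712-82047525) was a weaker transcript with 12.3, 11.5 and 9.28 CPM in MRL/lpr and 5.92, 8.0 and 6.61 in MRL/mpj. It was 1.61-fold higher in MRL/lpr (log2 fold change 0.69 ± 0.18, edgeR adjusted p = 0.0228). Ccl12 (ENSMUSG00000035352, chr11:82101845-82103400), a chemoattractant that rodents have beside Ccl2, had 56.9, 55.0 and 40.7 CPM in MRL/lpr and 38.3, 36.2 and 30.0 in MRL/mpj. The third MRL/lpr library stood between the other two and the highest MRL/mpj library. Ccl12 was 1.46-fold higher (0.55 ± 0.14, edgeR adjusted p = 0.0247).

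These 3 calls rested on the choice of libraries. In the third MRL/lpr library the log2 CPM of Ccl2, Ccl7 and Ccl12 was below the mean of the other two by 0.41, 0.34 and 0.46, where the median gene was level with it. Without that library the log2 fold changes were 0.57 for Ccl2, 0.80 for Ccl7 and 0.69 for Ccl12, all past the threshold. Ccl2 passed the threshold in 1 of the 6 fits that left out 1 library, and Ccl7 and Ccl12 each passed in 2 of 6, with positive values in all of them. The adjusted p reached 0.126 for Ccl2, 0.0902 for Ccl7 and 0.0982 for Ccl12. Markers of monocytes, which carry Ccr2, summed to 587 to 674 CPM in MRL/lpr and 581 to 602 CPM in MRL/mpj, and none of them was at 0. Of these 7 markers 3 were higher, 1 lower and 3 not called, where 11.1% of all genes tested were higher and 9.06% lower. Fn1 made up most of that sum, and without it the other 6 were at 83.3 to 98.4 and 88.6 to 99.7 CPM. Their part in the result was not tested.

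Ccl3 and Ccl4, the macrophage inflammatory proteins 1 alpha and 1 beta, attract monocytes, macrophages and T cells, Ccl3 in part through Ccr1. They were by far the most abundant CC chemokines in both strains, and Ccl3 differed more between the strains than Ccl4. Ccl3 (ENSMUSG00000000982, chr11:83647844-83649355) had 899.8, 865.5 and 701.6 CPM in MRL/lpr and 413, 433 and 403 in MRL/mpj. The MRL/mpj libraries lay close together and far below the lowest MRL/lpr library. The difference was 1.98-fold (log2 fold change 0.98 ± 0.09, edgeR adjusted p = 7.85e-05), and it was 1.09 on the log2 scale without the third MRL/lpr library. From 0.91 to 1.09, Ccl3 kept its call in all 6 fits that left out 1 library.

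Ccl4 (ENSMUSG00000018930, chr11:83662584-83664683) had 805, 764 and 683 CPM in MRL/lpr and 599.6, 591 and 570.0 in MRL/mpj. The groups did not overlap, and the difference was 1.28-fold (0.36 ± 0.07, edgeR adjusted p = 0.00646). Ccl4 kept its call in each of the 6 fits that left out 1 library, with an adjusted p of up to 0.0385. Ccl3 and Ccl4 lie 13228 bases apart on opposite strands.

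Ccl5, also called RANTES, is a ligand of Ccr1 and Ccr3 and a transcript typical of cytotoxic T cells and natural killer cells as well as of activated macrophages. Ccl5 (ENSMUSG00000035042, chr11:83525778-83530518) had 9.49, 12 and 10.6 CPM in MRL/lpr and 6.64, 6.82 and 7.13 in MRL/mpj, without overlap. It was 1.56-fold higher in MRL/lpr (0.64 ± 0.15, edgeR adjusted p = 0.0153), and the call was lost in 3 of the 6 fits without 1 library, with adjusted p of up to 0.0636. Of 12 T and NK cell markers, 9 were also higher in MRL/lpr (against 11.1% of all genes tested) and 3 were not called. Their summed level was 27.4 to 29.6 CPM in MRL/lpr against 5.86 to 7.63 CPM in MRL/mpj, and Cd8b1 was at 0 in each MRL/mpj library. Cd3e was at 0 in MRL/mpj replicate 2, Klrb1c in MRL/lpr replicates 2 and 3, and Ncr1 in replicate 3 of both strains. The part of these cells in the Ccl5 result was not tested. In bulk libraries, a change in the number of cells of a type and a change in RNA per cell cannot be told apart.

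**Figure D2:**
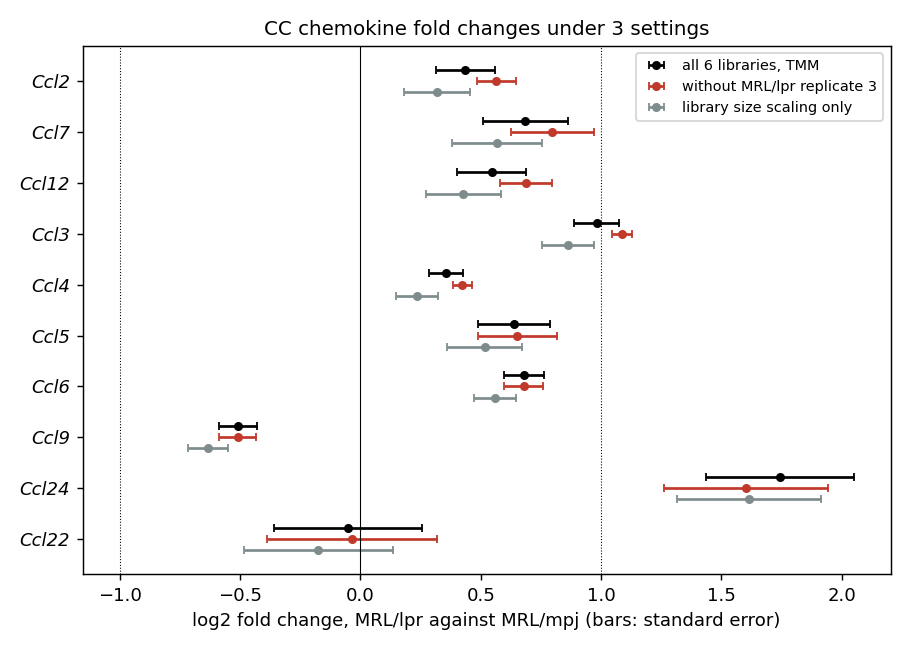
Log2 fold change of each CC chemokine gene, MRL/lpr over MRL/mpj, with the standard error as bars, for all 6 libraries with TMM scaling (black), without MRL/lpr replicate 3 (red) and with scaling by library size alone (grey). Dotted lines mark a log2 fold change of 1 in either direction. Ccl24 lies beyond the line in all 3 settings, Ccl3 crosses it only in the red setting, and Ccl9 lies below 0 in all 3.

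Ccl6 and Ccl9 are neighbouring rodent genes of the macrophage inflammatory protein group whose products bind Ccr1. Their transcripts differed between the strains in opposite directions. Ccl6 (ENSMUSG00000018927, chr11:83587882-83593087) had 65.5, 71.2 and 69.3 CPM in MRL/lpr and 44.7, 44.0 and 39.7 in MRL/mpj. It was 1.60-fold higher in MRL/lpr (0.68 ± 0.08, edgeR adjusted p = 0.000391). E230016K23Rik, a transcript on the opposite strand that covers Ccl6, had 0 to 23 counts a library against 2068 to 3351 for Ccl6.

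Ccl9 (ENSMUSG00000019122, chr11:83572919-83578636) had 41.3, 42.9 and 42.4 CPM in MRL/lpr and 63.6, 58.9 and 57.7 in MRL/mpj. All MRL/lpr libraries were below all MRL/mpj libraries, and the coefficient of variation within MRL/lpr was 1.88%. Ccl9 was 0.702 times as high in MRL/lpr (log2 fold change -0.51 ± 0.08, edgeR adjusted p = 0.00161). Both genes kept their calls in all 6 fits that left out 1 library, between 0.63 and 0.72 for Ccl6 and between -0.54 and -0.47 for Ccl9. The 2 genes are 9245 bases apart, and the ratio of Ccl6 to Ccl9 in FPKM, the deposited level per transcript length and library size, was 2.69, 2.82 and 2.77 in MRL/lpr and 1.19, 1.27 and 1.17 in MRL/mpj.

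Ccl24, or eotaxin-2, attracts eosinophils through Ccr3 and is a product of macrophages. It had the largest fold difference of the 10 genes. Ccl24 (ENSMUSG00000004814, chr5:135569937-135573049) had 7.13, 10.1 and 11.4 CPM in MRL/lpr and 3.87, 1.70 and 2.96 in MRL/mpj. Spread was wide in both strains, with a coefficient of variation of 22.8% in MRL/lpr and 38.3% in MRL/mpj, but the groups did not overlap. The difference was 3.35-fold (1.74 ± 0.31, edgeR adjusted p = 0.00334) and ran from 1.48 to 2.03 on the log2 scale when 1 library was left out, past the threshold in each case. The counts behind it were 335, 476 and 475 in MRL/lpr and 199, 85 and 154 in MRL/mpj. In the third MRL/lpr library, where Ccl2, Ccl3, Ccl4, Ccl7 and Ccl12 were lowest of their strain, Ccl24 was highest. Of 7 markers of brain border macrophages, none was higher, 2 (Mrc1 and Cbr2) were lower and 5 were not called by edgeR, where 11.1% of all genes tested were higher and 9.06% lower. At an unadjusted p under 0.05 by edgeR, 1 of the 7 was higher and 3 were lower. These markers summed to 33.5 to 36.5 CPM in MRL/lpr and 42.2 to 48.8 CPM in MRL/mpj, and none was at 0.

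Ccl22 is made by dendritic cells and macrophages and attracts T cells through Ccr4. Ccl22 (ENSMUSG00000031779, chr8:94745590-94751699) was the weakest member, with 2.13, 1.42 and 1.72 CPM in MRL/lpr and 1.75, 2.2 and 1.52 in MRL/mpj. The groups overlapped fully and the log2 fold change was -0.05 ± 0.31 (edgeR adjusted p = 0.936). With 67 to 110 counts a library, this standard error does not show that the strains were alike.

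Levels between genes were compared in the deposited FPKM, which is per length and not TMM-scaled. The order by mean FPKM was the same in both strains: Ccl4, Ccl3, Ccl12, Ccl2, Ccl6, Ccl9, Ccl7, Ccl5, Ccl24 and Ccl22. Ccl4 had 1064, 1009 and 854 FPKM in MRL/lpr and 845, 833 and 804 in MRL/mpj, and Ccl3 had 1024, 984 and 755 in MRL/lpr and 502, 526 and 489 in MRL/mpj. In MRL/lpr these top 2 genes overlapped across libraries, and in MRL/mpj they were well apart. Together they made up 90.7% to 91.1% of the summed FPKM of the 10 genes in MRL/lpr and 89.9% to 90.4% in MRL/mpj. The share of Ccl3 alone was 44.7%, 44.8% and 42.7% in MRL/lpr and 33.5%, 34.9% and 34.2% in MRL/mpj, so that the ratio of Ccl3 to Ccl4 was 0.963, 0.976 and 0.885 against 0.594, 0.631 and 0.609. A ratio within a library does not depend on how libraries are scaled.

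The other 8 genes summed to 204, 204 and 159.6 FPKM in MRL/lpr and 152, 149.6 and 137 in MRL/mpj. Ccl12, the next in the order, had 92.4, 89.2 and 62.4 FPKM in MRL/lpr and 66.2, 62.7 and 52.0 in MRL/mpj. Ccl2 had 40.1, 37.2 and 27.4 FPKM in MRL/lpr and 26.4, 28.1 and 29.4 in MRL/mpj. On this scale the third MRL/lpr library overlapped the MRL/mpj libraries for both genes. In that library CT010467.1 held 6.38% of all counts, which FPKM does not correct for, and its part in the overlap was not tested. The ratio of Ccl12 to Ccl2 was 2.31, 2.40 and 2.27 in MRL/lpr and 2.51, 2.23 and 1.77 in MRL/mpj, which overlap. Ccl6 had 31.8, 34.5 and 31.8 FPKM in MRL/lpr and 23.1, 22.8 and 20.6 in MRL/mpj, and Ccl9 had 11.8, 12.2 and 11.5 in MRL/lpr and 19.4, 18.0 and 17.6 in MRL/mpj, so these neighbours in the order were well apart in MRL/lpr and close in MRL/mpj. At the low end, Ccl7, Ccl5, Ccl24 and Ccl22 ranged from 0.53 to 13.3 FPKM over the 6 libraries, and Ccl7 and Ccl5 overlapped in both strains. In MRL/lpr the ranges of Ccl2 and Ccl6, and of Ccl9 and Ccl7, overlapped too, which they did not in MRL/mpj.

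Against all genes tested, Ccl3 and Ccl4 stood above 99.6% to 99.8% of genes by mean FPKM in each strain. Ccl12 stood above 97.9% in MRL/lpr and 97.2% in MRL/mpj. Ccl24 stood above 47.0% of genes in MRL/mpj and above 71.3% in MRL/lpr, and Ccl9 above 89.0% and 83.0%. Ccl22 stood above 31.0% in MRL/mpj.

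Of 15 further CC ligand genes listed, 13 were in the table and 4 had enough counts to test, with 1 higher, 1 lower and 2 not called. These 4 genes are too few to set against the 11.1% higher and 9.06% lower of all genes tested. Ccl8, a further monocyte chemoattractant encoded near Ccl12 and Ccl7, had 1.40, 1.55 and 2.15 CPM in MRL/lpr and 0.233, 0.180 and 0.0577 in MRL/mpj. It was 10.7-fold higher in MRL/lpr (log2 fold change 3.42 ± 0.56, edgeR adjusted p = 0.00231) on counts of 66, 73 and 90 against 12, 9 and 3. Ccl19, a lymphoid ligand of Ccr7, had 0, 3 and 0 counts in MRL/lpr and 42, 44 and 36 in MRL/mpj. It was at least 12-fold lower in MRL/lpr against a floor of 3 counts per library (edgeR adjusted p = 0.00918). Ccl25 (0.22 ± 0.28, adjusted p = 0.654) and Ccl27a (-0.84 ± 0.46, adjusted p = 0.254) were not called by edgeR. Ccl20, Ccl21a, Ccl21b, Ccl26 and Ccl27b had 0 counts in each library, which allows up to 3 counts per library.

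Receptors came next. Of 14 CC receptor and atypical receptor genes examined, 11 were tested, 4 of these were higher (Ccr1, Ccr6, Ccr7 and Ccrl2) and 7 were not called. Of all genes tested, 11.1% were higher and 9.06% lower. Ccr1, the receptor of Ccl3, Ccl5, Ccl6, Ccl7 and Ccl9, had 91.2, 92.4 and 78.7 CPM in MRL/lpr and 13, 12.7 and 11.7 in MRL/mpj. It was 7.02-fold higher (log2 fold change 2.81 ± 0.10, edgeR adjusted p = 2.93e-07). Ccr2, the receptor of Ccl2, Ccl7 and Ccl12, had 8.27, 5.84 and 7.18 CPM in MRL/lpr and 8.29, 8.72 and 8.48 in MRL/mpj, and was not called (-0.26 ± 0.17, edgeR adjusted p = 0.349).

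For the other members, the receptors were few. Ccr3, the receptor of Ccl24, was not called (0.26 ± 0.37, edgeR adjusted p = 0.698). Ccr4, the receptor of Ccl22, had 0 counts in each library. Ccr6 (0.96 ± 0.06), Ccrl2 (0.88 ± 0.06) and Ccr7 (0.86 ± 0.16) were higher in MRL/lpr with edgeR adjusted p of 1.03e-05, 1.63e-05 and 0.00428, and none of the 10 ligands followed here is their main partner. Ackr1, an atypical chemokine receptor, was not called by edgeR at -1.04 ± 0.43 (adjusted p = 0.143) and was lower by DESeq2 (adjusted p = 0.0397).

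**Figure D3:**
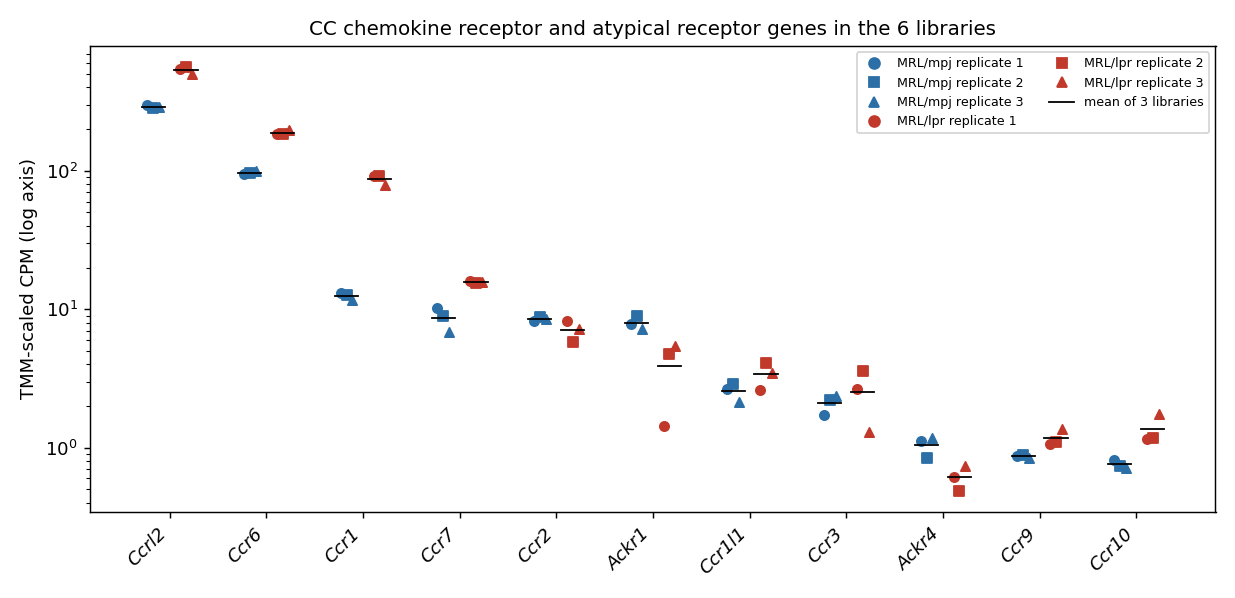
Level of 11 tested CC receptor and atypical receptor genes in each library, in TMM-scaled CPM on a log axis, drawn as for the ligands (MRL/mpj blue, MRL/lpr red, bars at the mean of 3 libraries). Ccr1 shows the widest gap between the strains, with 78.7 to 92.4 against 11.7 to 13 CPM, and Ccr2 lies at 5.84 to 8.27 against 8.29 to 8.72 CPM.

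Below the receptors, 22 signalling genes were tested. Rac2, a GTPase of leukocyte migration (0.37 ± 0.08, edgeR adjusted p = 0.0118), and Arrb1, an arrestin that ends receptor signalling (0.57 ± 0.17, edgeR adjusted p = 0.0494), were higher in MRL/lpr, and 20 genes were not called. The 2 higher genes are a share near the 11.1% of all genes tested, and leaving out 1 library gave from 0 to 7 signalling genes higher, with 7 without MRL/lpr replicate 3.

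Most genes of the list that induces or restrains CC chemokine transcripts were also higher. Of 19 tested, 16 were higher in MRL/lpr (against 11.1% of all genes tested), with a median log2 fold change of 0.73. No gene of the list was lower by edgeR or by DESeq2, and 1 was lower at an unadjusted p under 0.05. Tnf, a cytokine that induces Ccl2 and Ccl5, was at 1.30 ± 0.06 with an edgeR adjusted p of 1.1e-06. Among inhibitors, Zc3h12a, an RNase that degrades inflammatory transcripts, had 238, 231 and 228 CPM in MRL/lpr and 73.1, 72.6 and 77.0 in MRL/mpj (1.65 ± 0.06, edgeR adjusted p = 4.66e-07). Nfkbiz, an inducible NF-kB cofactor, was at 1.73 ± 0.08 (edgeR adjusted p = 1.14e-06), and Zfp36, which binds AU-rich transcripts and speeds their decay, at 0.73 ± 0.06 (edgeR adjusted p = 3.15e-05). The 3 that were not called were Ifng (1.52), Il4 (-0.08) and Irf4 (-0.23).

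Early response and heat shock genes, which tissue digestion at 37 degrees can induce in microglia, were given beside these values. All 16 were higher in MRL/lpr by edgeR (against 11.1% of all genes tested), from 0.73 to 1.17 on the log2 scale with a median of 0.97. None was lower by edgeR, by DESeq2 or at an unadjusted p under 0.05. Their summed level was 49565 to 56424 CPM in MRL/lpr and 28031 to 29779 CPM in MRL/mpj, where the 10 CC chemokines summed to 1608 to 1952 CPM and 1154 to 1216 CPM. For each gene, log2 CPM in the third MRL/lpr library was set against the mean of MRL/lpr replicates 1 and 2. The median difference was -0.17 for these 16 genes. For the 10 CC chemokines it was -0.11, with a range from -0.46 for Ccl12 to 0.40 for Ccl24. The part of the digestion in the CC chemokine values was not tested.

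**Figure D4:**
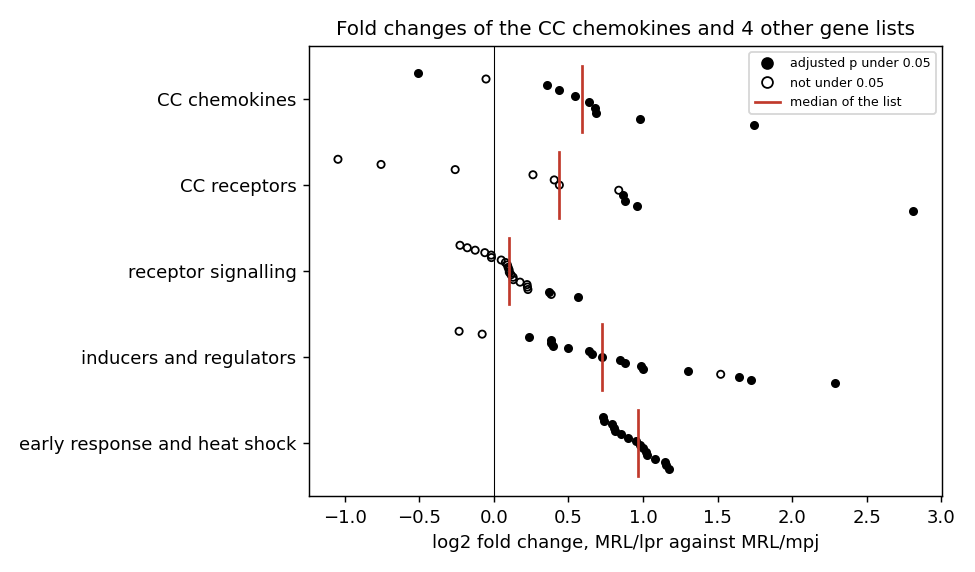
Log2 fold change, MRL/lpr over MRL/mpj, of each tested gene of 5 lists: CC chemokines, CC receptors, receptor signalling, inducers and regulators, and early response and heat shock genes. Filled points passed an adjusted p under 0.05 and red lines mark the list medians, which were 0.59, 0.44, 0.10, 0.73 and 0.97.

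Markers of other cell types were counted beside these values, where 11.1% of all genes tested were higher and 9.06% lower. Of 7 dendritic cell markers, 1 (Fscn1) was higher and 6 were not called. Their summed level of 669 to 787 CPM in MRL/lpr and 527 to 546 CPM in MRL/mpj was nearly all Fscn1, and the other 6 summed to 37.8 to 45.4 and 31.8 to 36.3 CPM. Of 7 neutrophil markers, 3 were higher and 4 not called, at 579 to 659 and 451 to 510.2 CPM. Of 6 B and plasma cell markers, 2 were higher and 4 not called, at 23.4 to 28.3 and 9.53 to 11.3 CPM, with Mzb1 at 0 in each MRL/mpj library and Ms4a1 at 0 in MRL/mpj replicate 1. Without Jchain the B and plasma cell sums were 9.54 to 11.6 and 8.43 to 9.84 CPM. Of 5 endothelial markers, 2 were higher and 3 not called, at 1356 to 1544 and 1208 to 1242 CPM. Of 5 astrocyte markers, 1 was lower and 4 not called, at 96.8 to 139 and 169 to 175 CPM, and without Slc1a3 the other 4 summed to 46.4 to 52.6 and 37.8 to 46.5 CPM. At an unadjusted p under 0.05 by edgeR, 6 neutrophil, 4 B and plasma cell and 2 endothelial markers were higher and 0 lower. By the same measure, 2 dendritic cell markers were higher and 2 lower, and 1 astrocyte marker was higher and 1 lower. What these cells contribute to the CC chemokine levels was not tested.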

How the data were processed

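From CD11b-selected brain cells, 3 MRL/lpr and 3 MRL/mpj libraries were sequenced as total RNA depleted of ribosomal RNA, with a stranded kit per the labels, whereas the methods name mRNA purification. The submitters' processing notes name cutadapt 1.9.3, HISAT2 2.0.4, Cuffdiff 2.2.1, Cufflinks and GRCm38, and how reads that match more than 1 gene were counted is not given in the sources used here. The authors deposited gene counts for each library, not normalized, and for 30602 genes the deposited FPKM, a level per transcript length and library size computed by the authors.

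Of 55401 gene IDs, 55141 matched GENCODE M21. Genes with too few reads were removed with filterByExpr (minimum count 10, minimum total 15), and 19554 were tested with edgeR 4.0.16 (R 4.3.3) by the quasi-likelihood test with TMM factors and a robust dispersion trend, all 6 libraries and no covariates. Counts were also simulated from the mean levels and library sizes of 19219 genes. There the fit called 95 of 100 genes changed by 1 on the log2 scale and 100 of 100 changed by 2, with 12 false calls. The simulated spread between replicates was smaller than in the data, where the common biological coefficient of variation was 0.26. Only well-counted genes were changed, and none by less than 1, so the simulation does not give the power for most members. Genes at a Benjamini-Hochberg adjusted p under 0.05 were called higher or lower. Levels were CPM, and FPKM where genes were compared with each other. DESeq2 1.42.0 and limma 3.58.1 served as alternatives. Totals were 45481609 to 49846634 counts. The floor of 3 counts covers counting error only, and the standard errors are those of the edgeR fit.

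The 10 genes and all lists were chosen with earlier results of these data known. Named were all members, any further CC ligand or receptor, and from each other list at most the 4 genes with the smallest p and the 4 with the highest mean count, while marker lists were given as lists, some genes of the receptor and microglial lists are not reported here, and the marker genes and the uncalled inducers named in counts of 5 or fewer, with the genes that dominate a marker sum, were chosen after their values were seen. Replicate numbers did not pair the libraries (correlations of same-numbered libraries -0.0543, -0.0312 and -0.0633).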

Additional observations from a re-analysis of the deposited data

How the results depend on the processing

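Of the 10 genes, Ccl3, Ccl6, Ccl9 and Ccl24 kept their call in 17 of 18 alternatives, Ccl4 and Ccl5 in 14, Ccl7 in 12, Ccl12 in 10 and Ccl2 in 8. The setting that ended all 9 calls was the edgeR test against a log2 fold change of at least 1 (glmTreat), with 0 members higher or lower, or higher by at least 1 (adjusted p = 0.114 for Ccl24, with 1.74), at values of 0.44 for Ccl2, 0.98 for Ccl3, 0.36 for Ccl4, 0.64 for Ccl5, 0.68 for Ccl6, 0.69 for Ccl7, -0.51 for Ccl9 and 0.55 for Ccl12. It also left 1 CC receptor higher, 0 signalling genes higher, 4 inducers and regulators higher and 0 early response genes higher, and 616 genes of the whole table in place of 1630. This test asks for a larger effect by construction. With library size alone 4 members were higher, and Ccl2 was at 0.32, Ccl4 at 0.24, Ccl7 at 0.57 and Ccl12 at 0.43 (adjusted p = 0.136, 0.0818, 0.0579 and 0.0823), with 1 signalling gene higher and 2 lower. With limma on log2(FPKM + 0.1), which has no TMM step, 5 members were higher, Ccl2 was at 0.30, Ccl4 at 0.23 and Ccl12 at 0.42, and 1 signalling gene was higher and 2 lower. With log2(FPKM + 1), 5 members were higher, Ccl2 was at 0.29, Ccl4 at 0.23 and Ccl12 at 0.41, and 1 signalling gene was higher and 2 lower, with 614 genes of the table past both thresholds. DESeq2 called 1 CC receptor lower (Ackr1), against 0 by edgeR. Without a count filter, and without the robust step, 1 signalling gene was higher. With counts divided by 4, further CC ligands lower numbered 0, since Ccl19 was no longer tested. The replicate block gave Ccl2 at 0.43 (adjusted p = 0.0832) and 7 members higher, though no library correlated best with its own number.

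Leaving out 1 library at a time gave 4 to 8 members higher (4 without MRL/lpr replicate 2, 8 without MRL/lpr replicate 3 and 5 without each other library), 1 lower, and 1 to 2 higher by at least 1. The log2 fold changes ran from 0.34 to 0.57 for Ccl2, 0.54 to 0.72 for Ccl5, 0.59 to 0.81 for Ccl7 and 0.45 to 0.69 for Ccl12. Ccl22, not called in any of these, ran from -0.21 to 0.10 and changed sign without MRL/lpr replicate 2 (0.078) and MRL/mpj replicate 2 (0.10), and Ccr3, which ran from -0.089 to 0.58, without MRL/lpr replicate 2. Signalling genes higher ran from 0 to 7 and lower from 0 to 1. The cause of these changes was not tested beyond what the settings show.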
